A study of Mus musculus with 8 samples.

Results

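The 8 heat shock genes Hspa1a, Hspa1b, Hsph1, Dnajb1, Hsp90aa1, Hspb1, Hspd1 and Hspe1 were followed in tumour endothelial cells (ECs), out of 20408 genes listed in the series. Cells were kept where at least 1 transcript molecule of Pecam1 (CD31, the EC surface protein used for sorting) was counted, which left 7159 of 8204 deposited cells (87.3%). The Pecam1 count chose the cells and is therefore given as a description only: cells were selected on the Pecam1 count, and genes were chosen by name. The study sorted live tumour ECs by FACS and profiled them by droplet single-cell RNA sequencing of transcript 3' ends, to ask how ECs of 2 breast tumour models respond to a STING agonist. Spontaneous tumours arose in MMTV-PyMT mice, in which the mammary promoter MMTV drives a viral oncogene. Implanted tumours grew from MMTV-PyMT tumour cells, which were cultured briefly and placed in the mammary fat pad of female mice. Each model received 1 intratumoural (i.t.) injection of PBS or of 3'3'-cGAMP, a STING agonist, at 14 µg in 70 µl, and ECs were taken 3 h later.

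Each model thus had a PBS and a cGAMP group, making 4 groups of 2 libraries. The methods state 2 mice for each group, the labels call all animals adult, and spontaneous tumours were treated in females. Every library is labelled c57bl/6 whereas the methods describe FVB animals for both models, so the strain is not settled here. Hosts of the spontaneous tumours carry the transgene themselves, so host genotype and tumour model cannot be told apart.

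Heat shock proteins are chaperones that bind unfolded proteins and help them fold, reassemble or be degraded. Their genes are switched on within minutes to hours of heat, oxidants or protein damage by heat shock factor HSF1, which binds heat shock elements, arrays of inverted GAA units, in promoters. The inducible Hsp70 genes are also among the transcripts known to rise while solid tissue is digested and sorted.

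The promoters are shown because the 2 genes that differed most between groups, Hspa1a and Hspa1b, are near copies. Both lie on the minus strand of chromosome 17 in GRCm38, Hspa1a at chr17:34969190-34972156 and Hspa1b at chr17:34956436-34959238, 9951 bases apart, and the plus-strand gene Gm20481 overlaps Hspa1a. The 250 bases before each start are given from RefSeq (GRCm38.p6) as chr17:34972157-34972406 for Hspa1a and chr17:34959239-34959488 for Hspa1b, both minus strand, and those before Hspb1 as chr5:135887669-135887918, plus strand. Capitals mark GAANNTTC or TTCNNGAA, a pair of facing heat shock units that reads the same on both strands.
Hspa1a: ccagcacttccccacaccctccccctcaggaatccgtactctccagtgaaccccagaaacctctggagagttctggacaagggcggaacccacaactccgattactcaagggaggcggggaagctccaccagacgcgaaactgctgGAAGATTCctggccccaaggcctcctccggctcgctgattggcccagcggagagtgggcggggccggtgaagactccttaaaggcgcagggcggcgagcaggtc
Hspa1b: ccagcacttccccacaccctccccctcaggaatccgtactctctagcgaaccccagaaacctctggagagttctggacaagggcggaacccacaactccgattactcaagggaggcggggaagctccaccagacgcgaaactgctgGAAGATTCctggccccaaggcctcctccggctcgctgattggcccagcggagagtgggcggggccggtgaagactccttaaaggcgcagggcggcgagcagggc
Hspb1: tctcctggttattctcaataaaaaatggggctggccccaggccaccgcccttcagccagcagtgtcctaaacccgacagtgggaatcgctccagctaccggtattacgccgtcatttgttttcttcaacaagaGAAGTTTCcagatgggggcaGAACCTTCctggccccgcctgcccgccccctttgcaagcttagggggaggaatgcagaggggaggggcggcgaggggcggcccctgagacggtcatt
The Hspa1a and Hspa1b stretches were identical at 247 of 250 bases, and in both the facing pair began 104 bases before the start.

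Hspd1 and Hspe1, the genes of the mitochondrial chaperonin and its lid, lie head to head on chromosome 1 and share 112 bases (Hspd1 at chr1:55077835-55088243 on the minus strand, Hspe1 at chr1:55088132-55091307 on the plus strand). A longer run of 4 alternating units lay before the Hspe1 start. It also lay before an alternative RefSeq start of Hspd1 inside the gene span above, while the window at the outer Hspd1 start held none. The run is shown on the Hspe1 strand as chr1:55088053-55088082, which also lies in an exon annotated to Hspd1. The capitals again mark the units.
Hspe1: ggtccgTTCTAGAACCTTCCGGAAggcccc
Over 32851 RefSeq promoter windows of 300 bases, 15.1% held a facing pair and 0.603% held 3 alternating units, meaning GAA and TTC in turn with any 2 bases between units on either strand, each of which contains 2 overlapping facing pairs. RefSeq windows were at hand for 7 of the 8 genes, and Hsp90aa1 (chr12:110690605-110702728) had none. Facing pairs were found for 6 of the 7 and 3 alternating units for 3 of the 7, Hsph1, Hspd1 and Hspe1. The Hspd1 and Hspe1 matches are the same stretch. No match was found for Dnajb1. These matches are letters in a window and say nothing of whether a factor was bound.

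Levels are given as mean CPM, a gene's counts per 1000000 counts averaged over the Pecam1-positive cells of a library. The Pecam1-positive cells held 7451522 to 16338968 transcript molecules (UMIs) per library, with medians of 9523 to 14708 UMIs per cell in 7 libraries and 3049 in replicate 1 of implanted cGAMP, where 37.9% of cells had fewer than 2000 UMIs against 3.28% to 10.6% elsewhere. Cdh5, a second EC gene, was counted in 83.2% to 97.3% of these cells, and the EC genes Kdr, Cldn5 and Emcn in 60.6% to 89.1%, 54.4% to 75.2% and 67.5% to 91.1%. Summed immune markers (4 genes) were 3.59 to 10 CPM in the PBS libraries, 19.1 to 25.7 CPM in spontaneous cGAMP and 43.4 to 151 CPM in implanted cGAMP. Mural markers (3 genes) summed to 498 to 617 CPM in spontaneous cGAMP against 71.1 to 384 CPM in the other groups, and 3 fibroblast markers to at most 36.4 CPM in any library. Epithelial markers (3 genes) reached 308 CPM in 1 implanted cGAMP library and 42.8 to 135 CPM in the others. None of the 13 defining markers of other cells was at 0 in any library. No more than 3 cell barcodes were shared by any pair of libraries, and 7 barcode sequences in all occurred in more than 1.

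Hspa1a and Hspa1b encode the stress-inducible Hsp70, which binds unfolded stretches of protein. The mean CPM of Hspa1a was 555 and 775 in spontaneous PBS, 551 and 510 in spontaneous cGAMP, 312 and 324 in implanted PBS, and 165 and 153 in implanted cGAMP. Hspa1b was at 341 and 544 CPM in spontaneous PBS, 332 and 298 in spontaneous cGAMP, 188 and 170 in implanted PBS, and 92.3 and 68.7 in implanted cGAMP. All 4 implanted libraries therefore lay below all 4 spontaneous libraries for both genes, and the cGAMP libraries lay below the PBS libraries within each model. The order of the 4 group means was the same for both genes, spontaneous PBS (665 ± 156 CPM for Hspa1a, SD, n = 2), spontaneous cGAMP (530 ± 29.1), implanted PBS (318 ± 8.05) and implanted cGAMP (159 ± 8.16). Of the neighbours in that order, the PBS and cGAMP groups within a model were tested, and spontaneous cGAMP was not tested against implanted PBS.

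**Figure D1:**
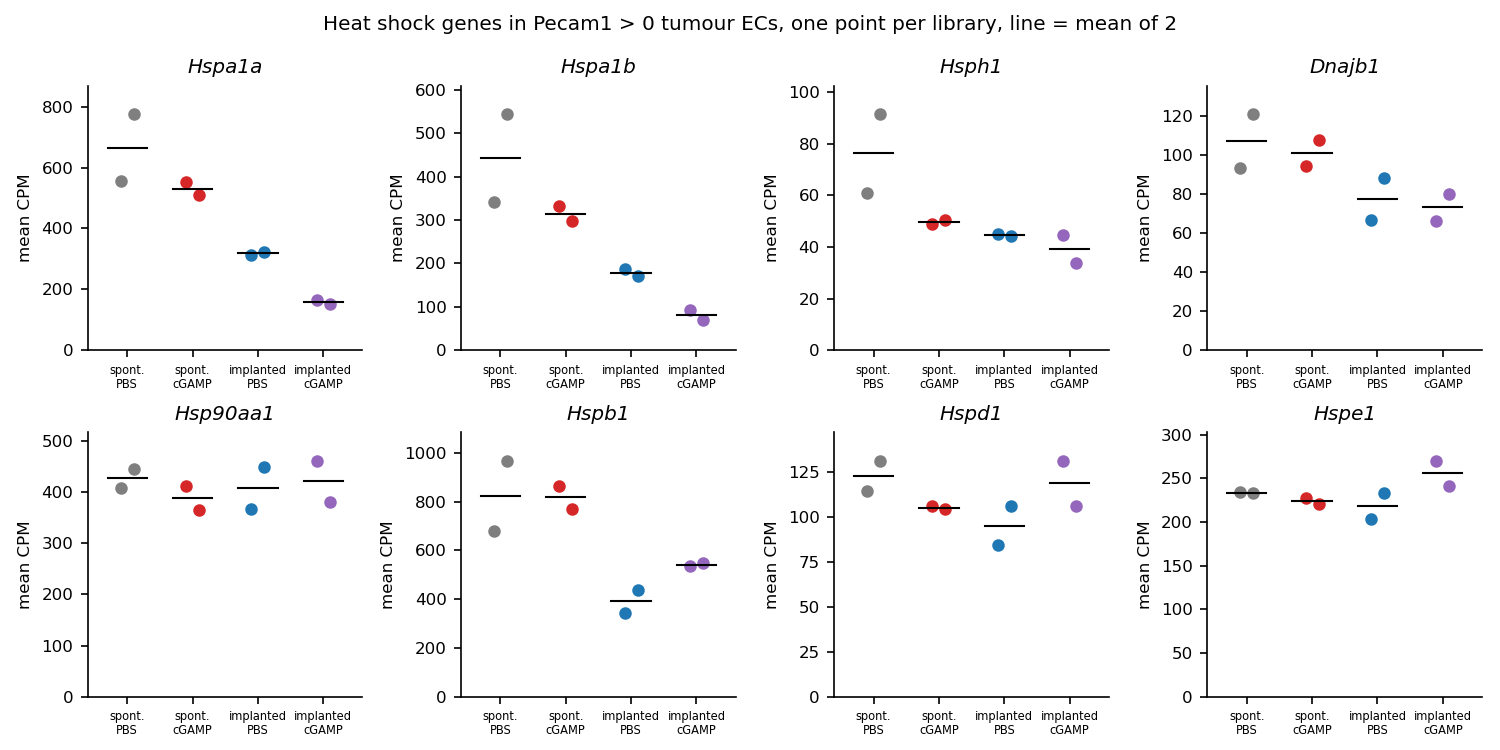
Mean CPM of each heat shock gene (vertical axis, from 0) in the 8 libraries by group (horizontal axis, spont. = spontaneous); points are libraries and the line is the mean of 2. Hspa1a falls from 555 and 775 CPM in spontaneous PBS to 165 and 153 CPM in implanted cGAMP, while Hsp90aa1 stays between 365 and 461 CPM in all 8 libraries.

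In implanted tumours Hspa1a was lower after cGAMP than after PBS by a fitted log2 difference of -1.0 ± 0.13 (SE), a 2-fold fall, with an adjusted p of 0.000771 (limma over 10424 genes, Benjamini-Hochberg adjustment, called under 0.05). Hspa1b differed by -1.16 ± 0.20 (adjusted p = 0.00312), a 2.23-fold fall. No other heat shock gene was called in this comparison, so 2 of 8 were called, both lower, where 25% of all 10424 genes were called in either direction and 16.4% were called lower. An unadjusted p under 0.05 was found for 5 of 8, against 37.4% of all genes. The share called is thus the same among the 8 genes as among all genes, while the median fitted difference of all genes was -0.10. With libraries scaled by the median of gene ratios that median was -0.00, and the share of all calls that were higher went from 34.3% to 51.7% (from 40.2% to 65.3% in spontaneous tumours). Both falls were called under all 20 alternative settings, with adjusted p from 5.63e-05 to 0.00937 for Hspa1a and from 0.000867 to 0.0239 for Hspa1b.

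Immune marker RNA was highest in the group where the Hsp70 genes were lowest. In cells without a UMI of 7 other-cell markers the implanted response of Hspa1a was -0.94 (adjusted p = 0.000254). Ptprc was the only immune gene among those markers. It was counted in 5.62% of cells in replicate 1 of implanted cGAMP, against 12.5% for the immune gene Lyz2. Cells with other immune RNA could thus remain, and the part of such RNA in the response was not tested. In cells of at least 2000 UMIs the response was -0.97 (adjusted p = 0.000955), and without the shallow replicate 1 of implanted cGAMP it was -1.05.

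In spontaneous tumours Hspa1a differed by -0.31 ± 0.13 after cGAMP and Hspa1b by -0.45 ± 0.20, and neither was called (adjusted p = 0.16 and 0.166). None of the 8 genes was called there, against 12.7% of all genes called and 7.59% called lower, while 3 of 8 had an unadjusted p under 0.05, against 29.3% of all genes. The spontaneous PBS pair was the most spread, with 555 and 775 CPM for Hspa1a. Without replicate 1 of that pair Hspa1a was at -0.55, Hspa1b at -0.79 and Hsph1 at -0.87. Over the 20 alternatives the values of these genes ran from -0.55 to -0.06, -0.79 to -0.12 and -0.87 to -0.29. They were called under 2, 1 and 6 of the 20 in that order. The difference between the responses of the 2 models was -0.69 ± 0.19 for Hspa1a (95% interval -1.11 to -0.27) and -0.70 ± 0.28 for Hspa1b, and it was not called (adjusted p = 0.16 and 0.329). Over the 20 alternatives the Hspa1a value ran from -0.93, without spontaneous PBS replicate 2, to -0.45, and it was called under 1. None of the 8 genes was called in the reported test of the difference, against 0.662% of all genes called and 0.46% called lower, while 4 of 8 had an unadjusted p under 0.05, against 13.4% of all genes.

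Between the models the Hsp70 pair differed after either injection. With PBS, Hspa1a was lower in implanted than in spontaneous ECs by -1.04 ± 0.13 on the log2 scale (adjusted p = 0.00198) and Hspa1b by -1.26 ± 0.20 (adjusted p = 0.00594), the latter called under 19 of 20 alternatives and lost with no filter on low values (adjusted p = 0.0511). With cGAMP the differences were -1.73 ± 0.13 (adjusted p = 0.000646) and -1.97 ± 0.20 (adjusted p = 0.00124), or 3.32-fold and 3.91-fold. After PBS 4 of the 8 genes were called, all lower in implanted ECs, against 7.83% of all genes called, 4.44% called lower and 3.39% called higher, and 6 of 8 had an unadjusted p under 0.05, against 24.2%. After cGAMP 3 of 8 were called, again all lower, against 13.8% called, 8.53% called lower and 5.23% called higher, and 4 of 8 had an unadjusted p under 0.05, against 30.3%. Under the median-of-ratios scaling the share of all calls that were higher went from 43.3% to 65.4% after PBS and from 38% to 58.3% after cGAMP. The comparisons share libraries with each other, and the 8 genes are not independent of one another.

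**Figure D2:**
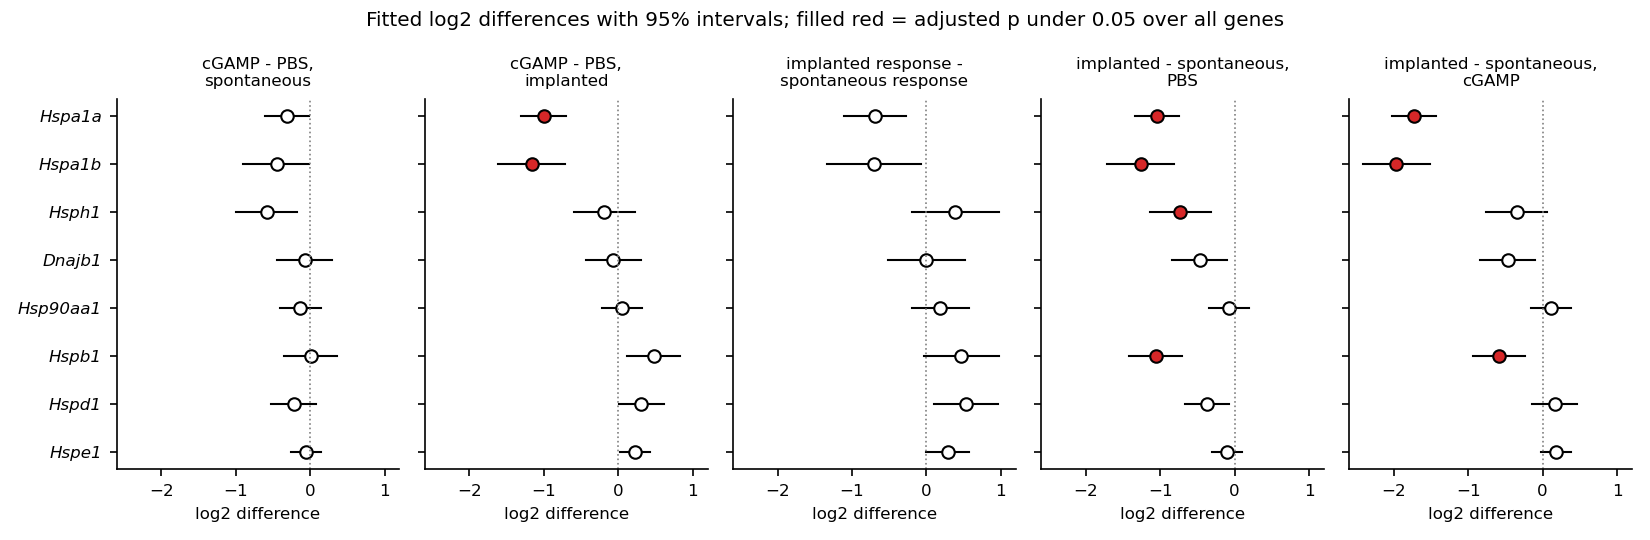
Fitted log2 differences (horizontal axis) of the 8 genes with 95% intervals in the 5 comparisons, over 2 libraries a group; filled red points have an adjusted p under 0.05 over all 10424 genes. Hspa1a and Hspa1b are red in 3 of the 5 panels, at -1.0 to -1.97, and in none of the 2 panels of the spontaneous response and the response difference.

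Hspa1a and Hspa1b reads could be mixed up where their transcripts are alike. Of all 50-base windows of the Hspa1a transcript 58.8% occurred in the Hspa1b transcript, but 0% did in its last 500 bases, the end the kit sequences, and the same 0% held for Hspa1b. The UMI ratio of Hspa1a to Hspa1b was 1.63 and 1.47, 1.61 and 1.61, 1.71 and 1.93, and 1.87 and 1.82 in the 4 groups in the order above. It is a ratio of molecules, not of levels scaled for transcript length. Among cells of at least 2000 UMIs the mean Pearson r between them was 0.69 over the 8 libraries (range 0.53 to 0.78, 554 to 1027 cells a library), a description of cells that share libraries.

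Cells were next thinned to 2000 UMIs each, leaving 6158 of the 7159 cells, to separate how many cells carried Hspa1a from how much each carried. The share of cells with an Hspa1a UMI was 38.4% and 45.1% in spontaneous PBS (95% Wilson intervals 35.2% to 41.6% and 41% to 49.3%), and 36.7% and 32.1% in spontaneous cGAMP (33.1% to 40.5% and 28.6% to 35.8%). In implanted PBS it was 29.2% and 28.8% (26.3% to 32.2% and 26.1% to 31.7%), and in implanted cGAMP 19.5% and 16.1% (17.1% to 22.1% and 13.3% to 19.4%). These intervals cover counting error only. Without thinning the shares were 52.1% and 60.1%, 58.7% and 54.3%, 53.2% and 54.1%, and 31.5% and 35.4%, so those of the PBS groups overlapped between the models.

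UMIs per Hspa1a-positive cell, after thinning, were 3.15 and 3.63 in spontaneous PBS, 2.82 and 3.23 in spontaneous cGAMP, 2.24 and 2.15 in implanted PBS, and 1.77 and 1.96 in implanted cGAMP. Both quantities were therefore lowest in implanted cGAMP and differed between the models without overlap. No cell type known to lack Hspa1a was at hand, so the share that free RNA gives was not measured. Among all Pecam1-positive cells without thinning, the tenth with the most Hspa1a carried 51.4% to 63.7% of its summed CPM in 6 libraries. In implanted cGAMP it carried 73.5% and 76%. Depth was not made equal for this share, and only 31.5% and 35.4% of the implanted cGAMP cells had an Hspa1a UMI without thinning.

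**Figure D3:**
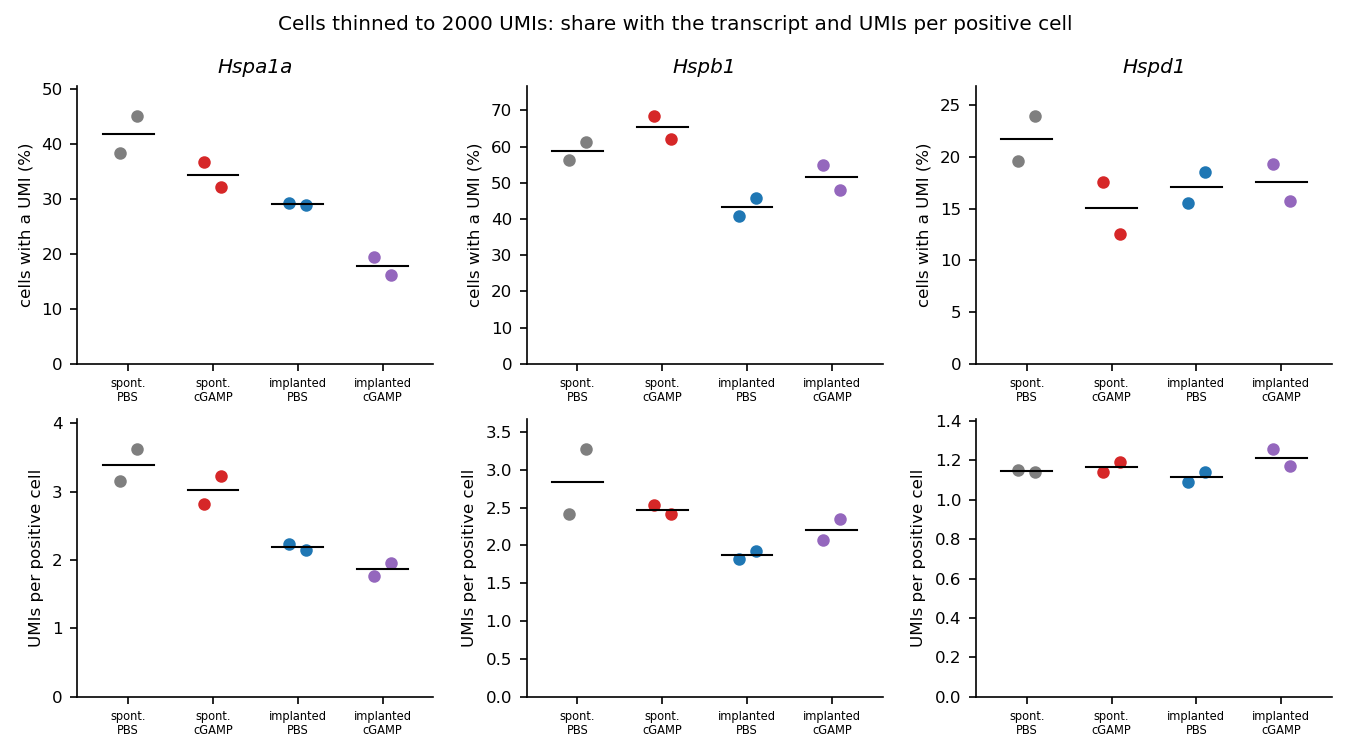
Cells thinned to 2000 UMIs: the share of cells with a UMI of Hspa1a, Hspb1 or Hspd1 (upper row, percent) and the UMIs per positive cell (lower row), by group with 1 point a library and the mean of 2 as a line. For Hspa1a both fall from spontaneous PBS (38.4% and 45.1%) to implanted cGAMP (19.5% and 16.1%). UMIs per Hspd1-positive cell lie between 1.09 and 1.26, near the lowest possible value of 1.

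Hsph1 and Dnajb1 are partners of Hsp70. Hsph1 (Hsp110) exchanges its nucleotide and Dnajb1 (Hsp40) hands it clients and stimulates its ATPase. Hsph1 was at 61.1 and 91.4 CPM in spontaneous PBS, 48.9 and 50.5 in spontaneous cGAMP, 45 and 44.1 in implanted PBS, and 44.7 and 33.8 in implanted cGAMP. It was lower in implanted than in spontaneous ECs after PBS by -0.73 ± 0.18 (adjusted p = 0.0409), and in spontaneous tumours cGAMP gave -0.58 ± 0.18 (adjusted p = 0.0685, not called). The PBS call held under 9 of the 20 alternatives. It was -0.45 with an adjusted p of 0.249 without spontaneous PBS replicate 2, and it was also lost without either implanted PBS library (adjusted p = 0.166 each) and without either spontaneous cGAMP library (adjusted p = 0.077 each). The spontaneous value was called without spontaneous PBS replicate 1 and without either implanted cGAMP library (adjusted p = 0.0352 and 0.0353). Dnajb1 was at 93.5 and 121, 94.4 and 108, 66.9 and 88.1, and 66.2 and 80.2 CPM, with all implanted below all spontaneous libraries. Its fitted model difference was -0.47 ± 0.16 after each injection (adjusted p = 0.119 after PBS and 0.0906 after cGAMP) and was not called.

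Hsp90aa1 encodes the inducible cytosolic Hsp90, a chaperone of kinases and steroid receptors. It was at 408 and 445 CPM in spontaneous PBS, 412 and 365 in spontaneous cGAMP, 367 and 448 in implanted PBS, and 461 and 381 in implanted cGAMP. The groups overlapped, and the fitted differences lay between -0.14 and 0.18, with adjusted p from 0.499 to 0.813. The 95% interval of the implanted response to cGAMP was -0.22 to 0.32, against -1.30 to -0.70 for Hspa1a.

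Hspb1, also called Hsp27, is a small heat shock protein that holds unfolding proteins and binds actin. Its level was 682 and 968 CPM in spontaneous PBS, 865 and 771 in spontaneous cGAMP, 345 and 438 in implanted PBS, and 535 and 549 in implanted cGAMP. It was lower in implanted ECs by -1.06 ± 0.16 after PBS (adjusted p = 0.00445) and by -0.59 ± 0.16 after cGAMP (adjusted p = 0.0375). The first difference was called under all 20 alternatives and the second under 14. The second was lost without spontaneous cGAMP replicate 1 or 2 (adjusted p = 0.185 and 0.131) and without implanted cGAMP replicate 1 or 2 (adjusted p = 0.0942 and 0.0673). cGAMP gave 0.48 ± 0.16 in implanted ECs, both libraries above both PBS libraries, with an adjusted p of 0.0523, and 0.01 ± 0.16 in spontaneous ECs. The implanted value passed the threshold under 9 of the 20 alternatives, with adjusted p from 0.0191 to 0.292, among them without spontaneous PBS replicate 1 or 2 (adjusted p = 0.0194 and 0.0191) and without implanted PBS replicate 2 (0.65, adjusted p = 0.0485). After cGAMP in implanted ECs Hspb1 and Hspa1a thus lay on opposite sides of 0, at 0.48 and -1.0.

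Hspd1 and Hspe1 form the folding cage of mitochondria, Hspd1 (Hsp60) as the barrel and Hspe1 (Hsp10) as the lid. Hspd1 was at 114 and 131, 106 and 104, 84.1 and 106, and 131 and 106 CPM in the 4 groups, and Hspe1 at 234 and 233, 228 and 221, 203 and 233, and 270 and 241 CPM. Neither was called in any of the 5 comparisons. In implanted ECs cGAMP gave 0.31 ± 0.13 for Hspd1 (adjusted p = 0.122) and 0.23 ± 0.09 for Hspe1 (adjusted p = 0.0941), and in spontaneous ECs -0.22 ± 0.13 and -0.06 ± 0.09. Without implanted cGAMP replicate 2 the implanted Hspd1 value was 0.46, which rests on the shallow replicate 1 of that group. That library also had the highest summed epithelial (308 CPM) and immune (151 CPM) markers, and their part in the Hspd1 value was not tested. Over the 20 alternatives the implanted Hspd1 value ran from 0.07 to 0.48 and was called under 1. Over the libraries the genes most like Hspd1 were Myadm, Dnajc21, Krt19, Ipo7 and Pdcd11 (Pearson r 0.945 to 0.913, 8 libraries, 10423 genes compared), with Hspe1 at 0.82. The genes most like Hspa1a were Hspa1b (0.994), Gm12002 (0.992), Rnf144a (0.991), Rnf130 (0.989) and Dapk2 (0.989). With 8 libraries in 4 groups these coefficients are descriptions of the group order.

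Counting libraries that did not overlap, 5 of the 8 genes lay lower after cGAMP in spontaneous tumours and 2 of 8 in implanted tumours, against 41.5% and 41.6% of all genes. In implanted tumours 2 of 8 lay higher, Hspb1 and Hspe1, against 21.6% of all genes. After PBS 6 of 8 lay lower in implanted than in spontaneous ECs, against 36.5% of all genes, and after cGAMP 5 of 8 did, against 35.6%, with Hspd1 and Hspe1 higher in both implanted libraries against 21.4%. The summed level of the 8 genes was 2489 and 3310 CPM in spontaneous PBS, 2637 and 2427 in spontaneous cGAMP, 1610 and 1852 in implanted PBS, and 1764 and 1612 in implanted cGAMP.

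The other chaperone genes were counted in lists of textbook members. Hsf1 and Hsf2, heat shock factor genes, and Hsbp1, which encodes a binding protein of HSF1, were called in none of the 5 comparisons (lowest adjusted p = 0.205), at 12.8 to 23.1 CPM, 7.93 to 11.7 CPM and 158 to 184 CPM. Of 31 tested cytosolic partners, 2 rose and 1 fell with cGAMP in spontaneous tumours, and 4 rose and 2 fell in implanted tumours, where 12.7% and 25% of all genes were called. The list thus had no larger share of calls than all genes had. Sqstm1, an autophagy receptor gene (0.71 ± 0.10), and Hmox1, haem oxygenase (0.78 ± 0.15), rose in implanted tumours, and Cdc37, a partner of Hsp90, fell (-0.39 ± 0.08). The median difference of this list was -0.07 and 0.06 in the 2 models, against -0.10 for all genes in both. None of the 10 mitochondrial chaperone and protease genes was called in any comparison, and 1 of 7 chaperonin TRiC subunits, Cct3, rose in implanted tumours (0.41 ± 0.09), where 8.6% of all genes were called higher, while Cct8 fell in spontaneous tumours, where 7.59% were called lower.

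Chaperone genes of the endoplasmic reticulum were higher after cGAMP in both models. Of 14 genes 7 rose and none fell in spontaneous tumours, with a list median of 0.31 and 5.09% of all genes called higher, and 11 rose and none fell in implanted tumours, with a list median of 0.70 and 8.6% of all genes called higher. In implanted ECs Ddit3, a transcription factor of reticulum stress, rose by 1.27 ± 0.14 (adjusted p = 0.000302). The disulphide isomerase genes Pdia4, Pdia6 and Pdia3 rose by 0.88, 0.76 and 0.66. Between the models after PBS none of the 14 was called, while 2 had an unadjusted p under 0.05, against 24.2% of all genes. After cGAMP 10 were called higher in implanted ECs against 5.23% of all genes. The difference between the responses was called for none against 0.662% of all genes.

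**Figure D4:**
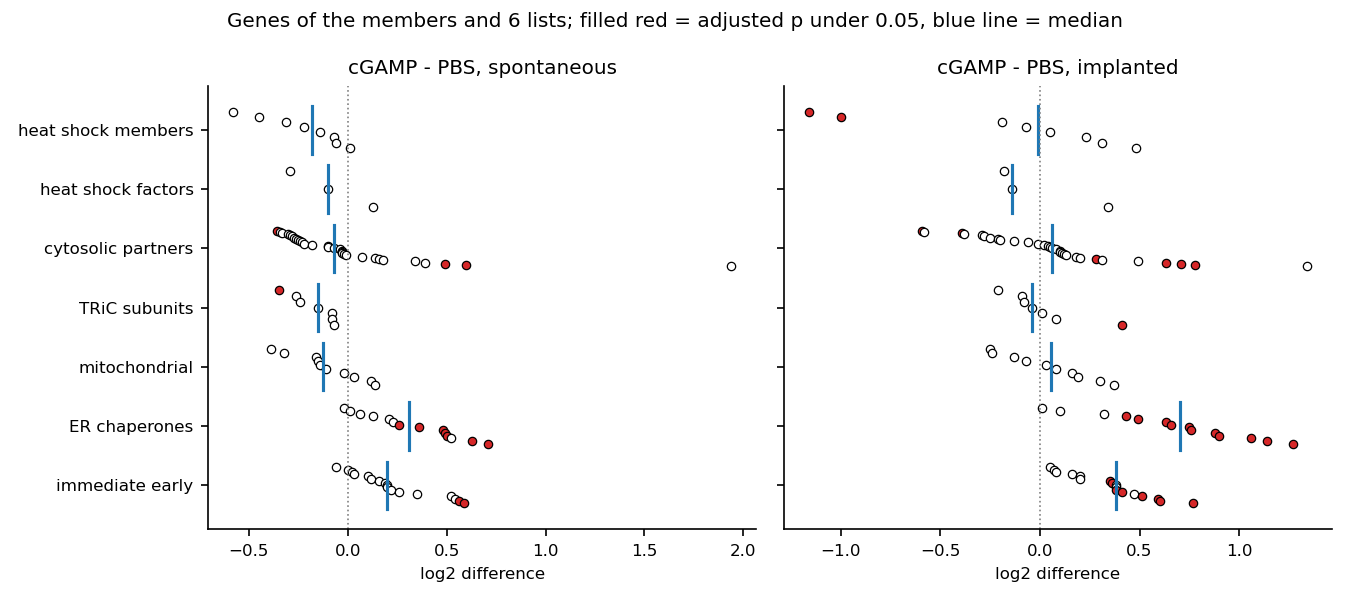
Fitted log2 difference, cGAMP minus PBS (horizontal axis), of every tested gene of the members and of 6 gene lists, in spontaneous (left) and implanted (right) tumour ECs; red points have an adjusted p under 0.05 and blue lines are list medians. The 2 red members at the left of the implanted panel are Hspa1b (-1.16) and Hspa1a (-1.0), and the reticulum list sits at a median of 0.70.

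Immediate early genes, which are induced by digestion and sorting among other triggers, were examined because the Hsp70 genes share that property. The summed level of 17 such genes was 9882 and 10750 CPM in spontaneous PBS, 11710 and 12450 in spontaneous cGAMP, 7402 and 9696 in implanted PBS, and 9938 and 11820 in implanted cGAMP. It was thus higher in both cGAMP libraries than in both PBS libraries within each model, while Hspa1a was lower. With cGAMP 2 of 17 rose in spontaneous tumours (Fosb and Atf3) and 8 of 17 in implanted tumours (among them Fosb, Zfp36, Ier3 and Atf3), against 5.09% and 8.6% of all genes called higher, and none fell. Between the models after PBS 3 were lower in implanted ECs (Jun, Jund and Zfp36) and 2 higher (Atf3 and Gadd45b), against 4.44% of all genes called lower and 3.39% called higher. The digestion step is not spelled out for these libraries. For flow cytometry and for bulk RNA sequencing of ECs the study's methods describe digestion with collagenase, DNase and dispase. The part of digestion in the Hsp70 levels was not tested.

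From cell to cell Hspa1a was most like Hspa1b. Over all Pecam1-positive cells, shallow ones included, and among 8750 genes compared, those with the highest mean within-library Pearson r to Hspa1a were Hspa1b (0.66), Gja4 (0.31), Jun (0.30), Sema3g (0.29), Jund (0.29), Klf2 (0.28), Jag2, Podxl, Efnb2 and Azin1 (0.27 each). Gja4, Sema3g, Jag2 and Efnb2 are genes of arterial ECs, and Klf2 is a gene of ECs under flow. Among the heat shock genes the r was 0.25 for Hspb1, 0.18 for Dnajb1 and Hsp90aa1, 0.09 for Hsph1, 0.03 for Hspd1 and 0.01 for Hspe1. Hspd1 ranked 4377 and Hspe1 ranked 6472 of the 8750. Among cells of at least 2000 UMIs, r with the log of a cell's total UMIs was 0.05, and with its mitochondrial share -0.07. These values come from sparse counts of cells in shared libraries and are descriptions, and the cause of the likeness was not tested.

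To see which cells carried the Hsp70 genes, cells with a UMI of a marker gene were compared with the other cells of the same library at 2000 UMIs, by an exact sign-flip permutation test over the 8 libraries (two-sided, smallest possible p 0.00781). The 7 marker classes (Gja5, an arterial connexin; Ackr1, a venular chemokine receptor; Apln, a tip cell peptide; Aqp7; Prox1, a lymphatic factor; Fos; and any of 4 division genes) gave 56 tests, 19 with an adjusted p under 0.05. The classes other than division were chosen after the levels had been seen. Cells with a UMI of a marker are not named as cell types here, since a cell without a UMI may still express the gene.

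Hspa1a was higher in cells with Gja5 in 8 of 8 libraries (mean log2 difference 0.78 ± 0.36, SD, adjusted p = 0.0337) and lower in cells with Ackr1 in 8 of 8 (-1.37 ± 0.40, adjusted p = 0.0337). In the Ackr1 cells it was at 377 and 411 CPM in spontaneous PBS, 239 and 149 in spontaneous cGAMP, 111 and 107 in implanted PBS, and 90.2 and 42.6 in implanted cGAMP. In the Gja5 cells it was at 636 and 1600, 810 and 891, 484 and 495, and 391 and 306 CPM. In both kinds of cell the implanted cGAMP libraries were again the lowest and the implanted lay below the spontaneous libraries, with 47 to 255 cells a library for Ackr1 and 21 to 101 for Gja5. Hspa1a was also lower in cells with Apln (-0.91 ± 0.66) and Prox1 (-0.95 ± 0.61, in 8 of 8 libraries each) and higher in cells with Fos (0.66 ± 0.38, 8 of 8), all with an adjusted p of 0.0337. The Prox1 value of Hspa1a was not called without thinning (-0.49, adjusted p = 0.154). Hspa1b was called in the same direction as Hspa1a in cells with Gja5 (0.48), Ackr1 (-0.97), Apln (-0.96) and Fos (0.73). In cells with Prox1 it was not lower (0.15 ± 0.90, higher in 5 of 8 libraries, adjusted p = 0.768). In cells with Aqp7 neither was called, with Hspa1a at 0.40 and Hspa1b at -0.25.

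Cells with Fos also differed in Dnajb1, which was higher by 0.78 ± 0.27 in 8 of 8 libraries (adjusted p = 0.0337). Within the cells without a Fos UMI, Hspa1a was at 480 and 511 CPM in spontaneous PBS, 393 and 437 in spontaneous cGAMP, 281 and 264 in implanted PBS, and 102 and 67.1 in implanted cGAMP. The order of the groups was the same in those cells as in all cells.

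Hspb1 and Hspd1 had other patterns. Hspb1 was higher in cells with Aqp7, a glycerol channel gene, by 1.02 ± 0.50 in 8 of 8 libraries (adjusted p = 0.0337, 10 to 17 such cells a library), and lower in cells with Apln (-0.92 ± 0.32) and Prox1 (-1.18 ± 0.87), in 8 of 8 each. Hspd1 was higher in cells with a division marker by 0.72 ± 0.66 in 8 of 8 libraries (adjusted p = 0.0337), and in no other class. Hspa1a was lower in those cells in 7 of 8 libraries (-0.64 ± 0.59) without being called (adjusted p = 0.0571). The share of all Pecam1-positive cells with a division marker was 12.8% to 23.5% in the PBS libraries and 6.29% to 10.1% in the cGAMP libraries. Without those cells the implanted response of Hspa1a was -1.07 (adjusted p = 0.000379).

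**Figure D5:**
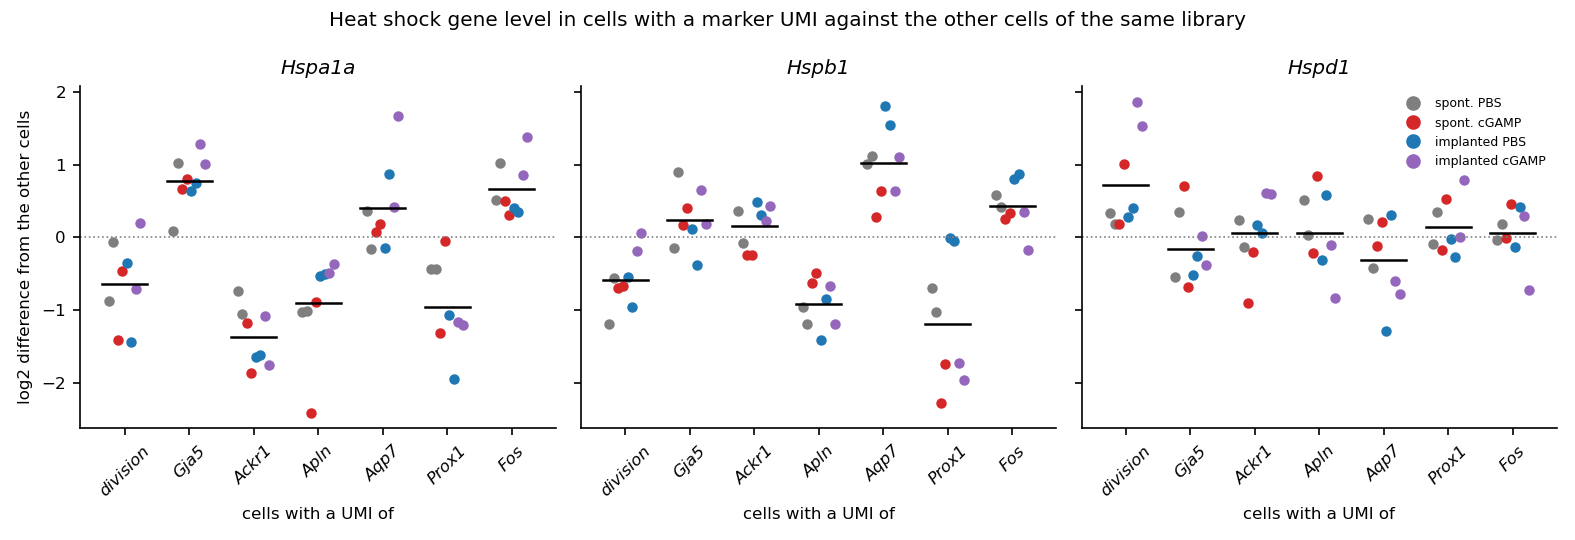
Log2 difference (vertical axis) of Hspa1a, Hspb1 and Hspd1 between cells with a UMI of the marker on the horizontal axis and the other cells of the same library, thinned to 2000 UMIs; points are the 8 libraries coloured by group and the line is their mean. Hspa1a lies above 0 for Gja5 in all 8 libraries and below 0 for Ackr1 in all 8, and Hspd1 lies above 0 for division markers in all 8.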

How the data were processed

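Live CD31+ tumour ECs from 8 libraries were sequenced with a 3' single-cell kit. Per the labels and the study's methods, the authors aligned reads to mm10 with Cell Ranger 3.0.0, used Seurat 3.1.1, and left out cells with under 500 genes or over 10% mitochondrial counts and genes found in under 3 cells. The deposited values are the natural log of 1 plus a cell's UMIs scaled to 10000, and dividing by the smallest value in a cell gave whole UMIs (tolerance 0.01) for all values. No doublet caller was run, and doublet removal by the authors is not given in the sources used here; refits left out cells with other-cell markers. CPM was averaged over Pecam1-positive cells. limma 3.58.1 was fitted to log2(mean CPM + 1) of the 8 libraries for genes at 5 CPM or more in 2 or more libraries, with Benjamini-Hochberg adjustment over 10424 genes, and 0.05 as the threshold. The fit was tested on simulated data. Fold changes are on this log2(CPM + 1) scale. The limma p-values rest on a spread between libraries that is pooled over the 4 groups of 2 and moderated by a trend over all genes. They do not measure the spread of the compared groups alone. Wilson intervals cover counting error only. The gene lists and the 8 genes were chosen with earlier results of these data known; the text names all 8 genes and up to 4 called genes a list by lowest adjusted p. Alternatives changed the cells, scaling, pseudocount, filter, block and single libraries. 1 gene of the lists is not reported here by name.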

Additional observations from a re-analysis of the deposited data

How the results depend on the processing

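Each of the 8 genes was refitted in 5 comparisons under 20 settings, giving 800 values, of which 715 kept direction and side of the threshold, 18 lost the call, 27 gained it and 40 changed sign. The number of the 8 genes called after cGAMP in spontaneous tumours was 0, and became 2 with UMIs summed over cells, 1 with at least 2 Pecam1 UMIs, 1 with at least 2000 UMIs, 1 with thinned cells and 0 to 3 with 1 library left out. In implanted tumours it was 2, and became 4 with median-of-ratios scaling and 2 to 3 with 1 library left out. With 1 library left out the difference of the responses gave 0 to 1, the models after PBS 3 to 4, and the models after cGAMP 2 to 3. Between models after PBS, where 4 were called, summed UMIs gave 6 (Dnajb1 and Hspd1 added) and no filter on low values gave 2. The number of all genes called moved as well. With summed UMIs it was 2839 of 10354 in spontaneous tumours and 1317 of 10354 between models after PBS. As reported it was 1322 and 816 of 10424. In spontaneous tumours it was 1621 of 10392 with at least 2 Pecam1 UMIs, 1737 of 10387 with at least 2000 UMIs and 763 of 10532 with thinned cells. No filter gave 327 of 18812 between models after PBS. In implanted tumours 3 of the 8 were called with all cells, at least 2 Pecam1 UMIs, no division markers, at least 2000 UMIs and thinned cells. All genes called there were 2327 of 10546, 2829 of 10392, 2196 of 10348, 2950 of 10387 and 1473 of 10532 in that order. Median-of-ratios scaling called 2299 of 10424 genes in implanted tumours, against 2609 as reported. The cause of these shifts was not tested.

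The replicate numbers come from different mice, and deviations of same-numbered libraries correlated at -0.216 to 0.125. The numbers need not match across groups, so these values do not settle whether libraries pair. With a replicate block 0, 3, 0, 4 and 4 of the 8 genes were called after cGAMP in spontaneous tumours, in implanted tumours, in their difference, and between models after PBS and after cGAMP, and 1230, 2524, 58, 741 and 1362 genes. Crossing the spontaneous PBS numbers, chosen after seeing the data, gave 1253, 2516, 82, 778 and 1363 genes, with 2 of the 8 called in spontaneous tumours.

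Sign changes all came from values that were not called. Dnajb1 after cGAMP became 0.02 in spontaneous tumours with median-of-ratios scaling, and in implanted tumours 0.12 with summed UMIs, 0.01 with all cells, 0.04 with at least 2000 UMIs and 0.03 with median-of-ratios scaling. Its difference of responses became 0.23, 0.01, 0.13 and 0.00 under those settings, 0.22 without other-cell markers and 0.00 with pseudocount 10. Hsp90aa1 became 0.04 in spontaneous tumours, -0.04 in the difference and -0.10 between models after cGAMP without other-cell markers, -0.04 with summed UMIs and -0.01 with at least 2 Pecam1 UMIs in implanted tumours, and 0.01 between models after PBS with median-of-ratios scaling. Hspb1 in spontaneous tumours became -0.00 with all cells, -0.02 with at least 2 Pecam1 UMIs, -0.04 without division markers, -0.01 with at least 2000 UMIs and -0.03 with thinned cells. Hspd1 between models after cGAMP became -0.02, and Hspe1 in spontaneous tumours 0.09, without other-cell markers, and Hspe1 0.04 with median-of-ratios scaling. With 1 library left out the ranges were -0.39 to 0.01 for Hsph1 in implanted tumours, -0.26 to 0.11, -0.27 to 0.12 and -0.20 to 0.20 for Dnajb1 in spontaneous tumours, implanted tumours and their difference, -0.10 to 0.19, -0.22 to 0.07 and -0.02 to 0.25 for Hsp90aa1 in implanted tumours and between models after PBS and cGAMP, and -0.25 to 0.26 for Hspb1 in spontaneous tumours.

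Of the 19 called marker-cell values, 13 stayed called without thinning and 18 with pseudocount 1, both chosen after seeing the data. The 6 lost without thinning were Prox1 with Hspa1a (-0.49), Aqp7 with Hspe1 (-0.28), Fos with Hspb1 (0.32), and division with Hsp90aa1 (0.18), Hsph1 (0.03) and Hspb1 (-0.43), and division with Hsph1 (0.53) was lost with pseudocount 1. With 2 libraries a group, small differences were not detectable.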
